A study of Gossypium hirsutum with 45 samples.

Results

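The genes described here are 2 Hsp90 genes of upland cotton (Gossypium hirsutum), of 75376 genes in the deposited expression table. Gohir.D13G133900 lies on chromosome D13 at 47229546 to 47232641, plus strand, and the deposited description names it heat shock cognate protein 80, a name used for a cytosolic Hsp90 in tomato. Gohir.A13G130500 lies on chromosome A13 at 91736542 to 91739943, plus strand, and is described by its Hsp90 protein domain alone. They are called the D13 gene and the A13 gene below. Coordinates are those of the deposited table, made on a genome build that no source used here names. Both were chosen by their FPKM, which was far lower after PEG in leaf and stem, so their leaf and stem values are a description and carry no test.

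Seedlings of the variety Hengmian HD008, grown in sterilised sand, were given 10% PEG 6000, a polymer that lowers water potential and imitates drought, when they carried 3 leaves. Leaf, root and stem RNA was sequenced after 10, 30, 60 and 180 min of PEG and in untreated seedlings at 0 min, giving 15 groups of 3 libraries each, 45 in all. Every group comes from this variety, and the untreated seedlings were sampled at 0 min only, so that PEG, time of day and handling cannot be told apart. The labels do not say whether the 3 libraries of a group came from separate plants, so the p-values below reflect only how far these libraries scatter, a scatter that may be technical.

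Hsp90 is an ATP-driven chaperone that holds client proteins, among them kinases, hormone receptors and transcription factors, in a form that can be activated. It works with Hsp70, which hands clients on, and with co-chaperones that set the pace of its ATPase cycle. In plants the cytosolic Hsp90 proteins also restrain heat shock factors, the transcription factors that switch on many chaperone genes. Upland cotton carries an A and a D subgenome, so most genes have a counterpart on the other subgenome.

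Values are the deposited FPKM, fragments scaled by gene length and a factor for each library. Libraries held 16373617 to 21774520 reads, recovered from the FPKM steps. That factor did not follow the recovered reads alone. In a gene of 1 kb, 1 read was worth 0.0859 FPKM in root 180 min replicate 1 (17905378 reads). It was worth 0.0584 FPKM in root 0 min replicate 2 (17428959 reads). Correlations of log2(FPKM + 1) between libraries of a group ran between 0.855 and 0.979. At 0 min the summed FPKM of 67 chlorophyll-binding and Rubisco small subunit genes had a median of 21011 in leaf, 2643 in stem and 32.0 in root. For 195 nitrate transporter, phosphate transporter and Casparian strip genes the medians were 3099 in root, 1244 in leaf and 1304 in stem. Wood and fibre genes, 319 in all, had medians of 4110 in stem, 1580 in leaf and 3264 in root. Stem 0 min replicate 1 correlated less with the other 2 libraries of its group (r of 0.884 and 0.894) than they did with each other (0.964). The root 0 min columns include 2 with the same name, called libraries x and y here, and the third is replicate 2.

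In leaf, the D13 gene was among the strongly expressed Hsp90 genes at 0 min and stayed under 2 FPKM in every library after 180 min of PEG. Its FPKM was 98.9, 172 and 168 at 0 min and 83.2, 43.2 and 94.8 at 10 min. It was 17.2, 24.9 and 10.0 FPKM at 30 min, 2.80, 3.70 and 1.35 FPKM at 60 min, and 0.756, 1.60 and 1.67 FPKM at 180 min. All 3 libraries of each PEG time lay below all 3 at 0 min. Each time also lay below the one before without overlap, except 180 min, which overlapped 60 min. The group mean at 180 min was 1.34 ± 0.508 FPKM (SD, n = 3), against 146 ± 41.1 FPKM at 0 min (SD, n = 3), or 0.916% of the 0 min level. The counts behind these values were 39 to 79 reads per library at 180 min, against 4885 to 8149 reads at 0 min.

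The A13 gene followed the same course in leaf at slightly higher levels. It stood at 114, 207 and 205 FPKM at 0 min, and at 83.8, 54.1 and 99.0 FPKM at 10 min. By 30 min it was at 17.9, 28.04 and 10.5 FPKM, by 60 min at 6.47, 5.59 and 2.01 FPKM, and by 180 min at 3.52, 2.95 and 4.91 FPKM. Again no PEG library reached the lowest 0 min library, and 180 min overlapped only 60 min among the neighbouring times. The mean at 180 min, 3.79 ± 1.01 FPKM, was 2.16% of the 175 ± 53.4 FPKM at 0 min (SD, n = 3 each).

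On the log2(FPKM + 1) scale, used for all differences below and which understates the change of low values, the leaf difference of the D13 gene from 0 min was -1.01, -3.04, -5.36 and -5.96 at 10, 30, 60 and 180 min. For the A13 gene the differences were -1.13, -3.20, -5.01 and -5.17. Of the 46265 genes tested in leaf, the share with all PEG libraries below all 0 min libraries was 9.64% at 10 min, 21% at 30 min, 13.8% at 60 min and 21.5% at 180 min. Since leaf chose these genes, nothing is read from their place against those shares. At 180 min, 4 leaf genes differed downwards by at least as much as the D13 gene and 10 by at least as much as the A13 gene. Each count includes the gene itself, and that for the A13 gene includes the D13 gene too. Fewer cells of a type and less RNA per cell cannot be told apart in such bulk samples.

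In stem, the D13 gene reached the highest level of any group, and under PEG it came nearly as low as in leaf. It measured 218, 325 and 354 FPKM at 0 min and 115, 65.5 and 117 FPKM at 10 min. The later libraries held 51.9, 96.99 and 53.9 FPKM at 30 min, 8.70, 7.45 and 4.71 FPKM at 60 min, and 1.15, 3.18 and 4.16 FPKM at 180 min. No PEG library overlapped 0 min, and between neighbouring times only 10 and 30 min overlapped. The mean was 2.83 ± 1.54 FPKM at 180 min, against 299 ± 71.9 FPKM at 0 min (SD, n = 3 each), or 0.946% of the 0 min level. Between 30 and 60 min alone the difference was -3.08 on the log2(FPKM + 1) scale, the widest step between neighbouring stem times.

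The A13 gene had 83.8, 147 and 214 FPKM in stem at 0 min, and 62.8, 34.7 and 71.2 FPKM at 10 min. It had 36.5, 67.8 and 34.5 FPKM at 30 min, 12.5, 6.32 and 4.62 FPKM at 60 min, and 2.95, 6.53 and 6.95 FPKM at 180 min. The PEG libraries all lay below those at 0 min, while 10 and 30 min overlapped, as did 60 and 180 min. At 180 min the mean was 5.48 ± 2.20 FPKM, against 148 ± 65.0 FPKM at 0 min (SD, n = 3 each), or 3.70% of the 0 min level.

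Stem differences from 0 min were -1.60, -2.16, -5.24 and -6.35 (log2) for the D13 gene at 10, 30, 60 and 180 min. They were -1.34, -1.63, -4.08 and -4.49 for the A13 gene. Without stem 0 min replicate 1, the lowest of its group for both genes, the values at 180 min were -6.57 and -4.85. All PEG libraries lay below all 0 min libraries in 6.4%, 10%, 23.1% and 18.4% of 47698 stem genes at those times, given as background only. At 180 min, 5 stem genes differed downwards by at least as much as the D13 gene and 81 by at least as much as the A13 gene, counted in the same way as in leaf. In both tissues the D13 gene covered a wider range than the A13 gene, since the shares of the 0 min level left at 180 min given above were smaller for it.

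**Figure D1:**
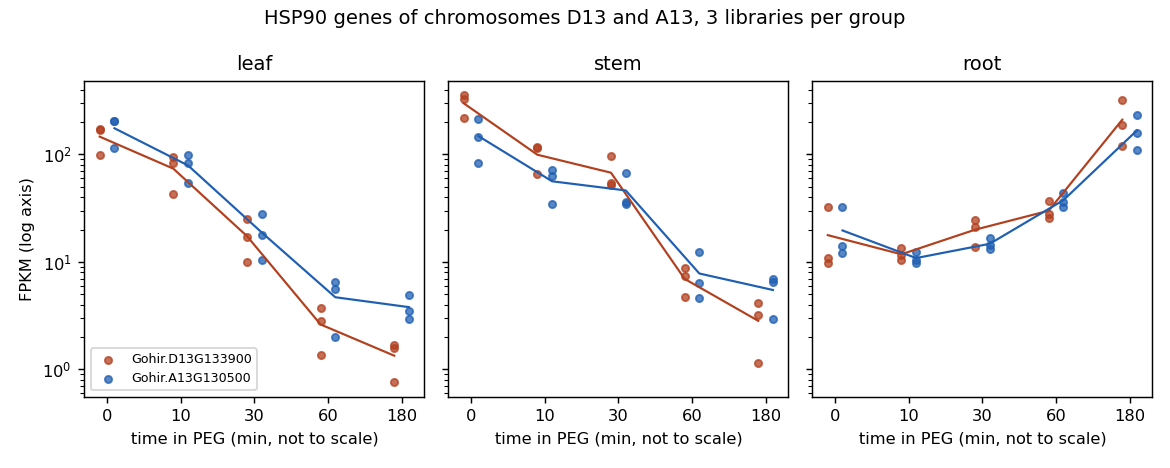
FPKM of the D13 gene (red) and the A13 gene (blue) in every library of leaf, stem and root against time in PEG; points are libraries, lines join group means, and the vertical axis is logarithmic. Both genes run downward in leaf and stem to 0.756 to 6.95 FPKM at 180 min, and upward in root to 111 to 322 FPKM.

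In root the course was another one. The D13 gene was low in untreated roots, had no call at 10, 30 or 60 min and was far higher at 180 min. Its root libraries x, 2 and y at 0 min had 9.75, 10.96 and 32.5 FPKM, so that 1 of the 3 lay well above the others. The PEG libraries had 10.4, 13.3 and 11.5 FPKM at 10 min, 13.8, 21.2 and 24.7 FPKM at 30 min, and 36.6, 27.7 and 25.5 FPKM at 60 min. At 180 min they had 322, 189 and 120 FPKM, all above every other root library. The mean of 210 ± 103 FPKM at 180 min was 11.9 times the 17.7 ± 12.8 FPKM at 0 min (SD, n = 3 each). It rose by 3.58 on the log2(FPKM + 1) scale (SE 0.41, limma with Benjamini-Hochberg adjustment over 46711 root genes, adjusted p = 7.28e-06). The tests at 10, 30 and 60 min gave -0.36, 0.33 and 0.91 (limma adjusted p = 0.648, 0.578 and 0.0953), none past the 0.05 threshold.

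For the A13 gene, root libraries x, 2 and y had 12.2, 14.2 and 32.5 FPKM at 0 min. The PEG libraries had 10.4, 12.3 and 9.78 FPKM at 10 min, 13.2, 14.4 and 16.7 FPKM at 30 min, 44.0, 32.8 and 35.7 FPKM at 60 min, and 232, 160 and 111 FPKM at 180 min. Every library at 60 and 180 min lay above all 3 at 0 min, although library y came close to the lowest at 60 min. The gene rose by 3.09 at 180 min (SE 0.32, limma adjusted p = 2.68e-06), with a mean of 167 ± 60.7 FPKM, against 19.6 ± 11.2 FPKM at 0 min (SD, n = 3 each). It also rose at 60 min, by 1.02 (SE 0.32, limma adjusted p = 0.0209), but not past the threshold at 10 min (-0.68, adjusted p = 0.185) or 30 min (-0.27, adjusted p = 0.553). The call at 60 min was lost without replicate 2 at 0 min (adjusted p = 0.0837), library x (0.0965) or replicate 1 at 60 min (0.0711), and under quantile normalisation (0.0552). It was also lost in 1 fit of all 45 libraries (0.0534).

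Changes were common in root. At 180 min, 55.3% of root genes were called, 28.5% of all tested as higher, and at 60 min 38.6% were called, 19.5% of all tested as higher. At 10 and 30 min the called shares were 15.2% and 34.2%. A call in root at 180 min sets the genes little apart from the rest. As to size, 820 genes, 1.76% of those tested, rose at least as far as the D13 gene, and 1188, or 2.54%, at least as far as the A13 gene. These counts too include the gene itself, and the second includes the D13 gene. All 3 libraries at 180 min lay above all at 0 min in 29.9% of root genes, and at 60 min in 27.5%.

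The scale of the root libraries moved with time. Their deposited FPKM summed to 872790 to 1029700 at 180 min, against 601212 to 651525 at 0 min. With each library divided by its own sum, the median of all root genes at 180 min shifted to -0.46 (log2), and 25.1% of the called genes were higher, against 51.5% with the deposited values. On that scale the D13 gene was 2.98 higher (limma adjusted p = 2.47e-05) and the A13 gene 2.49 higher (adjusted p = 1.52e-05) than at 0 min. The part of this shift in the root results was not tested.

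Other chaperone genes were also high in root library y. The Hsp90 gene Gohir.A12G254100 had 22.0 FPKM there, against 2.65 and 3.54 FPKM in libraries x and 2. The summed FPKM of 63 genes with Hsp70 in their description was 2337 in library y, and 1705 and 1696 in the other 2. Without library y, the D13 gene was 1.43 higher at 60 min than at 0 min (limma adjusted p = 0.00731), so that a call was gained. What sets library y apart was not tested.

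Across the 15 groups the D13 gene ranged 223-fold in group mean, and the A13 gene 46.2-fold. The D13 gene stood highest in stem at 0 min (299 FPKM), then in root at 180 min (210), leaf at 0 min (146), stem at 10 min (99.4), leaf at 10 min (73.7) and stem at 30 min (67.6). Below a gap came root at 60 min (29.9), 30 min (19.9) and 0 min (17.7), leaf at 30 min (17.4) and root at 10 min (11.8). The lowest were stem at 60 min (6.95) and 180 min (2.83) and leaf at 60 min (2.62) and 180 min (1.34). Of the 14 neighbouring pairs in that order, 10 had overlapping library values. The 4 that did not overlap were stem 30 min above root 60 min, root 60 min above root 30 min, root 10 min above stem 60 min, and stem 60 min above stem 180 min.

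The A13 gene had its highest mean in leaf at 0 min (175 FPKM), then root at 180 min (167) and stem at 0 min (148), 3 groups whose library values overlapped. Leaf at 10 min (79.0), stem at 10 min (56.2), stem at 30 min (46.2) and root at 60 min (37.5) came next. Root at 0 min (19.6), leaf at 30 min (18.8), root at 30 min (14.7) and root at 10 min (10.9) formed the middle. Stem at 60 min (7.80) and 180 min (5.48) and leaf at 60 min (4.69) and 180 min (3.79) were the lowest. Library values overlapped in 12 of the 14 neighbouring pairs. The exceptions were root 60 min above root 0 min and root 30 min above root 10 min.

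The 2 genes ran together closely. Pearson's r of log2(FPKM + 1) between them was 0.979 over the 15 group means and 0.975 over the 45 libraries. The deviations of single libraries from their group means had r of 0.912, so the libraries that were high for one gene in their group were mostly high for the other. These values describe genes that share every library and were picked for a shared pattern. Near-identical counterparts can share reads, and no source used here says how reads matching both were counted, so the split between the copies is uncertain.

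The balance between the copies differed by tissue and time. In leaf the D13 gene made up 26.1 ± 8.72% of the summed FPKM of both at 180 min, against 45.7 ± 0.783% at 0 min (SD, n = 3 each). The leaf libraries at 180 min held 17.7, 35.1 and 25.4%, all below the 46.5, 45.4 and 45.04% at 0 min, while 10 and 30 min averaged 47.7% and 48.3%. In stem the D13 share was 32.7 ± 4.71% at 180 min, against 67.8 ± 5.00% at 0 min, after 64.1%, 59.5% and 48.6% at 10, 30 and 60 min. Stem libraries at 180 min held 28.05, 32.7 and 37.5%, and those at 0 min 72.2, 68.9 and 62.4%. The D13 gene was the larger contributor in untreated stem and the smaller one by 180 min in both tissues.

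In root the copies stayed near parity, with a D13 share of 54.8 ± 3.11% at 180 min, against 46.0 ± 3.51% at 0 min (SD, n = 3 each). Group means at 10, 30 and 60 min were 52.0%, 56.9% and 44.3%. The log2 ratio of the D13 to the A13 gene averaged 0.11 over the 12 PEG libraries and -0.21 over the 3 at 0 min. That difference of 0.32 did not pass a two-sided exact permutation test (p = 0.116 over all assignments of the labels, where the smallest possible p is 0.0022). The 180 min libraries alone gave a difference of 0.49 with an exact p = 0.1, the smallest that 3 against 3 libraries allow.

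**Figure D2:**
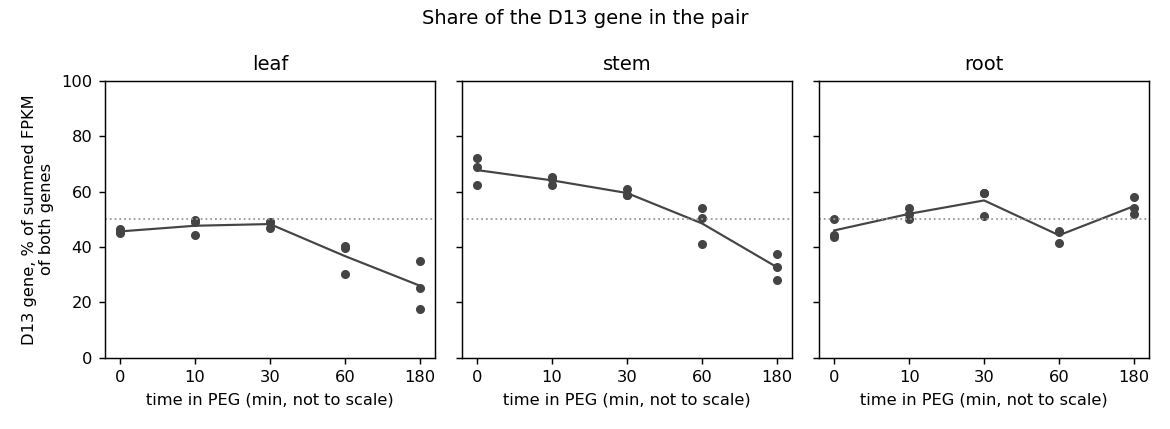
Share of the D13 gene in the summed FPKM of the D13 and A13 genes (percent) against time in PEG; points are libraries, lines join group means, and the dotted line marks equal shares. The mean share at 180 min is 26.1% in leaf and 32.7% in stem, while root means stay between 44.3% and 56.9%.

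The table holds 26 other genes with the Hsp90 protein domain, and together with the 2 genes they form the Hsp90 pool of these tissues. The D13 and A13 genes supplied 1.26 ± 0.321% of its summed FPKM in leaf at 180 min, against 16.1 ± 1.56% at 0 min (SD, n = 3 each). In stem they supplied 2.33 ± 0.844% at 180 min, against 27.3 ± 2.0% at 0 min. In root the order was the other way round, with 28.3 ± 3.34% at 180 min, against 6.24 ± 2.84% at 0 min.

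Without the D13 and A13 genes, the other 26 summed to 402 ± 18.8 FPKM in leaf at 180 min, against 1648 ± 341 FPKM at 0 min. In stem the rest summed to 339 ± 43.4 FPKM at 180 min, against 1174 ± 266 FPKM at 0 min. The root sum was 927 ± 253 FPKM at 180 min, against 532 ± 80.7 FPKM at 0 min (SD, n = 3 for each sum). As a share of each library's whole FPKM, the rest made up 0.0960 ± 0.0229% in root at 180 min, against 0.0858 ± 0.0150% at 0 min, with overlapping libraries. In leaf that share was 0.0668 ± 0.0028% at 180 min, against 0.278 ± 0.0455% at 0 min, and in stem 0.0656 ± 0.0096% at 180 min, against 0.216 ± 0.0523% at 0 min, without overlap.

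**Figure D3:**
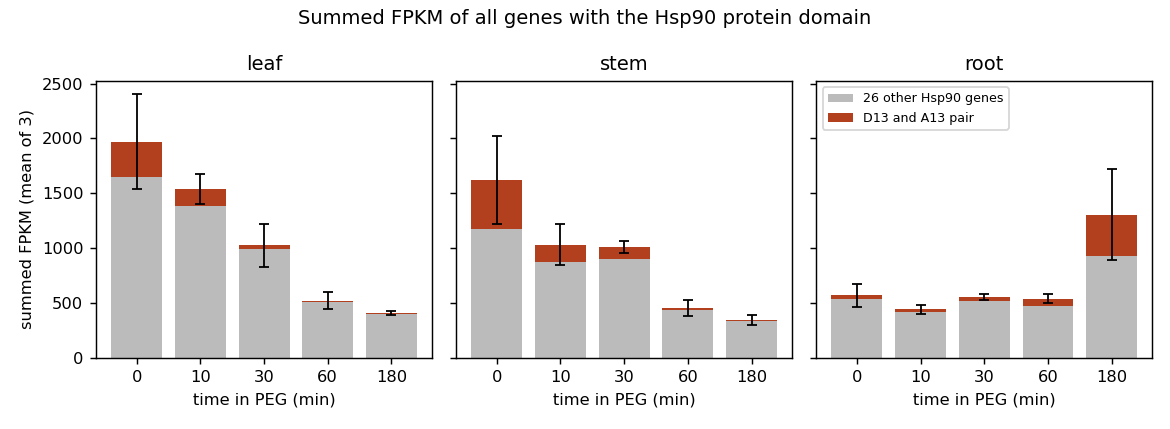
Summed FPKM of all 28 genes with the Hsp90 protein domain by tissue and time in PEG (min); bars are means of 3 libraries, split into the D13 and A13 genes (red) and the other 26 (grey), and error bars are the SD of the total. The total at 180 min is 407 FPKM in leaf and 347 in stem, against 1970 and 1621 at 0 min, whereas root reaches 1304 FPKM at 180 min, against 569 at 0 min.

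Most of the other Hsp90 genes also fell in leaf and stem. At 180 min in leaf, 17 of the 23 that passed the expression filter fell and 1 rose (limma adjusted p under 0.05), with a median difference of -1.47 against -0.04 over all leaf genes. The gene that rose, Gohir.A01G110500, described as endoplasmin and named after its values were seen, had 3.81 ± 0.819 FPKM at 180 min, against 1.30 ± 0.465 FPKM at 0 min (SD, n = 3 each). The background was 9.61% of leaf genes lower and 9.89% higher. In stem, 17 of 25 fell and none rose by limma (0 higher at an unadjusted p under 0.05), with a median of -1.31 against 0.00 over all stem genes, where 14.3% of genes were lower and 15% higher. In root, 7 of 24 rose and 10 fell, with a median of -0.18, where 28.5% were higher and 26.9% lower. The root split was 5 higher and 13 lower with each library divided by its own sum. Without root library y it was 7 and 10, and without stem 0 min replicate 1 the stem split was 0 and 18.

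None of the other Hsp90 genes passed the limma test at 10 min in any tissue. At an unadjusted p under 0.05, 2 of 23 were lower in leaf, 6 of 24 in root and 6 of 25 in stem, where 14.9%, 27.5% and 9.68% of all genes had such a p in either direction. After adjustment 1.51% of leaf genes, 15.2% of root genes and 0.0021% of stem genes, a single one, were called at that time. With the replicate number as a block, limma called 0 stem genes at 10 min (4116 at an unadjusted p under 0.05), and 5 other Hsp90 genes were lower at an unadjusted p under 0.05. At 30 min 9 of 23 had fallen in leaf and 1 of 25 in stem, where 9.5% and 0.759% of all genes were called lower. By 60 min the counts were 13 in leaf, with 1.9% of all genes lower, and 18 in stem, with 11.6% lower.

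Among the other Hsp90 genes, Gohir.A12G254100 on chromosome A12 (107301251 to 107304663) had the lowest leaf and stem differences at 180 min. Its leaf libraries had 0.244, 0.362 and 1.03 FPKM at 180 min, against 25.0, 47.0 and 90.8 FPKM at 0 min. Its stem libraries had 1.93, 3.32 and 2.31 FPKM at 180 min, against 27.4, 52.3 and 185 FPKM at 0 min. In root it had 421, 312 and 210 FPKM at 180 min, against 2.65, 3.54 and 22.0 FPKM at 0 min. In no tissue did the 180 min and 0 min libraries overlap. It fell by 5.01 in leaf (SE 0.58), fell by 4.24 in stem (SE 0.70) and rose by 5.39 in root (SE 0.50), with limma adjusted p = 7.5e-05, 9.01e-04 and 1.03e-06.

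Of the 17 other Hsp90 genes whose mean reached 10 FPKM in at least 1 group, 15 fell in both leaf and stem at 180 min. Of all genes, 9.61% were called lower in leaf and 14.3% in stem, and the share lower in both was not counted. Of those 15, 5 rose in root, where 28.5% of all genes were called higher. The 5 include Gohir.D08G135400, whose root rise was fixed by its choice, so nothing is read from that count against that share. Another 5 of the 17 fell in root, where 26.9% of all genes were called lower. Of the 17, Gohir.D08G135400, Gohir.A03G020600 and Gohir.D03G148100 reached 10 FPKM in root at 180 min alone, so that level chose them and their root values are a description. The 5 that rose in root were Gohir.A12G254100, Gohir.D12G256400, Gohir.D08G135400, Gohir.A01G093900 and Gohir.D06G005800. Those that fell in root were Gohir.A06G002900 (-1.72), Gohir.A08G025500 (-1.19), Gohir.D02G132200 (-1.19), Gohir.D08G036000 (-0.61) and Gohir.A03G107100, given below. At 30 min Gohir.A06G002900 had been called higher in root (0.89, limma adjusted p = 0.0277), when 34.2% of root genes were called. Without a call, its leaf mean was 219 and 201 FPKM at 10 and 30 min, against 166 FPKM at 0 min. In stem these means were 160 and 185 FPKM, against 126 FPKM, also without a call. The root call of Gohir.D08G036000 was lost without replicate 2 at 180 min and in the fit of 2 groups alone (limma adjusted p = 0.0539 and 0.0541). Gohir.D12G256400 had 0.325 ± 0.146 FPKM at 180 min in leaf, against 5.49 ± 3.91 FPKM at 0 min, and 84.0 ± 16.5 FPKM at 180 min in root, against 3.17 ± 3.88 FPKM at 0 min (SD, n = 3 each). Gohir.A01G093900, described as heat shock protein 90-2 after a cytosolic Hsp90 of Arabidopsis, fell by 3.05 in leaf and fell by 2.60 in stem and rose by 0.99 in root. That root call was lost without replicate 2 or library x at 0 min (limma adjusted p = 0.0565 and 0.0509), without replicate 1 at 180 min (0.0602) and in the fit of 2 groups alone (0.0656). The root calls of this gene and of Gohir.D06G005800 (0.74) were lost with each library divided by its own sum, where the values were 0.40 and 0.16, and under quantile normalisation, where they were 0.53 and 0.40. The leaf call of Gohir.D08G135400 (-1.02) was lost under quantile normalisation (-0.88, limma adjusted p = 0.0605) and without leaf replicate 1 or 2 at 180 min (0.0554 and 0.0660). Its stem call (-1.6995) was lost without stem replicate 3 at 0 min (0.0806), without replicate 1 at 180 min (0.0698) and in the fit of 2 groups alone (0.0985). For Gohir.D12G256400 the leaf call (-2.13) was lost without leaf replicate 3 at 0 min (limma adjusted p = 0.0531).

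The Hsp90 genes with the highest levels in untreated leaf also fell in leaf and stem. Gohir.A08G025400 had the highest Hsp90 level in leaf at 0 min and stood at 75.9 ± 3.91 FPKM at 180 min, against 384 ± 80.4 FPKM at 0 min. It fell by 2.30 in leaf and fell by 1.58 in stem (limma adjusted p = 6.39e-05 and 0.00105). In root it had 137 ± 48.1 FPKM at 180 min, against 155 ± 35.1 FPKM at 0 min (-0.21, adjusted p = 0.476). Dividing each library by its own sum made that root difference -0.83 (adjusted p = 0.00749), and quantile normalisation made it -0.90 (0.00586). Gohir.D08G035900 fell by 2.64 in leaf and fell by 1.62 in stem, with -0.35 in root (adjusted p = 0.222), or -0.96 (adjusted p = 0.00381) on the own-sum scale, -0.98 (0.00392) under quantile normalisation and -0.63 (0.0193) without replicate 1 at 180 min.

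The 2 exceptions in leaf and stem were Gohir.A03G020600 and Gohir.D03G148100, both described as heat shock protein 83. Their means at 0 min were at most 1.46 FPKM, and their root differences were 5.19 and 5.26, values given as a description since the root level at 180 min chose both genes. Root levels were 57.0 ± 25.6 and 54.4 ± 16.7 FPKM at 180 min, against 0.499 ± 0.413 and 0.417 ± 0.267 FPKM at 0 min (SD, n = 3 each). Gohir.D03G148100 did not pass the expression filter in leaf. In leaf at 180 min Gohir.A03G020600 had 0.710 ± 1.07 FPKM, against 0.404 ± 0.349 FPKM at 0 min (SD, n = 3 each).

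Among the named Hsp90 genes, 2 are described as organelle forms. Gohir.D06G005900, described as endoplasmin, the Hsp90 of the endoplasmic reticulum, fell by 2.03 in leaf and fell by 1.31 in stem, with -0.16 in root (limma adjusted p = 0.504), or -0.71 (adjusted p = 0.0179) on the own-sum scale. Gohir.A03G107100, described as the chloroplast heat shock protein 90-5, fell in all 3 tissues, with -1.15 in leaf, -1.23 in stem and -1.498 in root (limma adjusted p = 0.0045, 0.0015 and 6.14e-04). Not every gene with such a description fell, since the endoplasmin gene Gohir.A01G110500 given above rose in leaf and had 0.07 in stem (limma adjusted p = 0.873). Gohir.A13G088890, a second 90-5 gene, had -0.12 in leaf and -0.28 in stem (adjusted p = 0.807 and 0.442). Both were named after their values were seen.

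**Figure D4:**
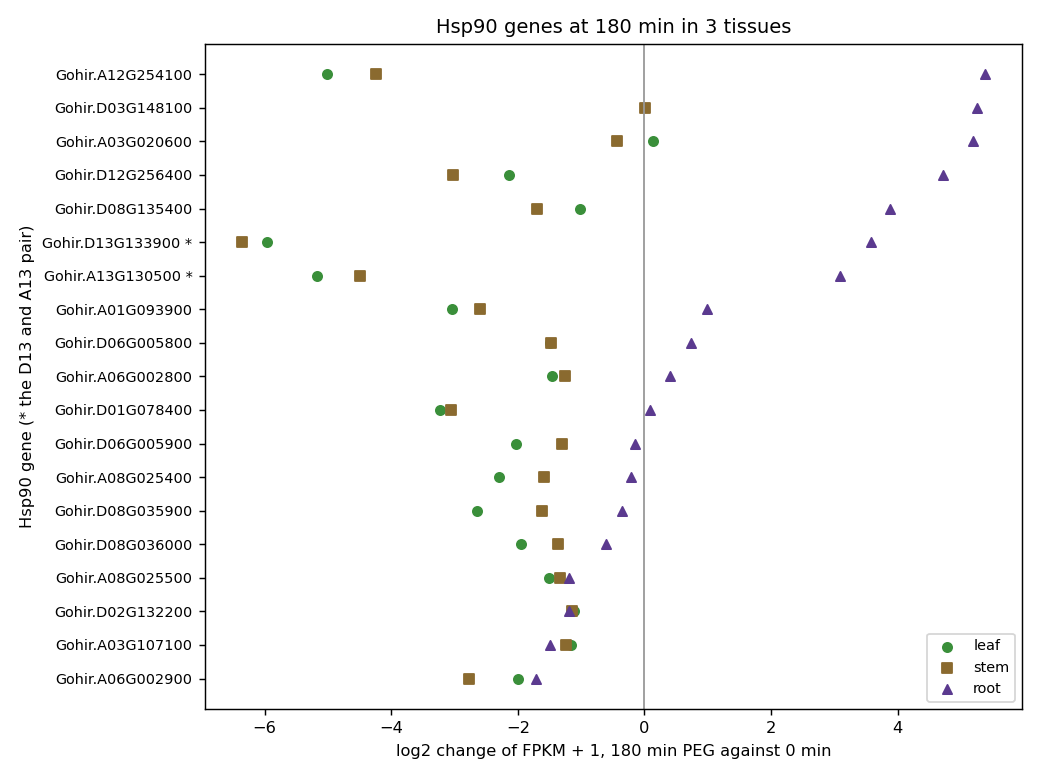
Difference in log2(FPKM + 1) between 180 min of PEG and 0 min for the 19 Hsp90 genes whose mean reached 10 FPKM in at least 1 group, in leaf (circles), stem (squares) and root (triangles), ordered by the root value; asterisks mark the D13 and A13 genes. Those 2 genes have the lowest leaf values of the plot, -5.96 and -5.17, and root values of 3.58 and 3.09.

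More co-chaperone genes fell than rose in leaf and stem. Of 89 genes described as activators of Hsp90, CS domain proteins, FKBP-type isomerases and the like, 25 of 80 tested fell and 4 rose in leaf at 180 min (median -0.34). In stem 26 of 81 fell and 4 rose (median -0.28), and in root 30 of 70 rose and 15 fell (median 0.21). Of all genes, 9.61% were called lower and 9.89% higher in leaf, 14.3% and 15% in stem, and 26.9% and 28.5% in root. The root share of co-chaperone genes called lower, 21.4%, was below that of all genes. The root split reversed to 17 higher and 31 lower with each library divided by its own sum, and was 25 and 22 under quantile normalisation. Many FKBP-type proteins are not tied to Hsp90.

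Gohir.D04G089500, an activator of the Hsp90 ATPase, fell by 2.30 in leaf and fell by 2.87 in stem (limma adjusted p = 7.64e-06 and 5.46e-05), with 0.22 in root (adjusted p = 0.34). Gohir.D09G201600, an FKBP-type isomerase with TPR repeats, had 252 ± 101 FPKM in root at 180 min, against 1.83 ± 1.13 FPKM at 0 min (SD, n = 3 each). It fell by 3.89 in leaf and fell by 2.88 in stem and rose by 6.47 in root, and its stem call was lost in the fit of 2 groups alone (limma adjusted p = 0.0581). Gohir.A10G041000, a CS domain gene, fell by 2.01 in leaf and fell by 1.90 in stem and rose by 1.80 in root.

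The next list holds genes with Hsp70 in their description, Hsp70 proteins and a few partners such as the nucleotide exchange factor FES1. In leaf 31 of 50 tested fell and 1 rose (median -0.87). In stem 25 of 49 fell and none rose by limma (1 higher at an unadjusted p under 0.05), with a median of -0.57. In root 25 rose and 6 fell of 49 (median 0.59). The shares of all genes called lower and higher were 9.61% and 9.89% in leaf, 14.3% and 15% in stem, and 26.9% and 28.5% in root. With each library divided by its own sum, root had 13 higher and 7 lower. Of genes with the Hsp70 protein domain alone, 30 of 45 fell in leaf, 24 of 44 fell in stem, and 23 of 45 rose and 5 fell in root. Gohir.D05G096900 had 663, 384 and 205 FPKM in root at 180 min, against 7.43, 9.70 and 53.7 FPKM in libraries x, 2 and y at 0 min. In leaf it had 1.01, 0.994 and 1.19 FPKM at 180 min, against 46.6, 56.0 and 122 FPKM at 0 min. Its counterpart on A05, Gohir.A05G096700, fell by 4.96 in leaf and fell by 5.27 in stem and rose by 4.74 in root. The FES1 gene Gohir.A04G083600 fell by 1.30 in leaf and 1.05 in stem and rose by 3.04 in root. Gohir.D13G239700 rose by 5.38 in root but had no call in leaf (0.13, limma adjusted p = 0.743) or stem (-0.44, 0.543).

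Small heat shock proteins hold unfolding proteins without ATP. At 180 min their genes fell in 24 of 41 tested cases in leaf and rose in 3 (median -1.39). In stem 19 of 54 fell and 2 rose (median -0.66). All genes had 9.61% lower and 9.89% higher in leaf, 14.3% and 15% in stem, and 26.9% and 28.5% in root. In root 46 of 64 rose and 3 fell, with a median of 3.32, and 40 rose and 9 fell on the own-sum scale. Of those 64, 25 passed the filter through the 180 min libraries alone, which fixes their direction. The same held in root for 3 of 29 ClpB or Clp genes, 5 of 197 DnaJ genes and 3 of 77 heat shock factor genes. It also held there for 3 of 70 co-chaperone genes, 1 of 49 Hsp70 list genes and 1 of 24 other Hsp90 genes. In leaf it held for 3 of 41 small heat shock protein genes and 3 of 72 heat shock factor genes. Stem had 2 DnaJ, 2 heat shock factor and 1 chaperonin list gene of this kind. Without a filter, 48 of 95 rose and 3 fell in root, with a median of 0.71, and the leaf and stem medians were -0.10 and -0.12. At 30 min, when the D13 and A13 genes were already lower, the summed FPKM of the 104 list genes was not. In leaf it was 1017, 1525 and 1160 at 30 min, against 503, 561 and 881 at 0 min, without overlap. In stem it was 926, 1089 and 1526 at 30 min, against 525, 610 and 1389 at 0 min, with overlap. Gohir.A03G037000, described as an 18.5 kDa class I heat shock protein, had 318 ± 124 FPKM in root at 180 min, against 8.68 ± 2.48 FPKM at 0 min (SD, n = 3 each). In leaf it had 2.04 ± 0.720 FPKM at 180 min, against 36.4 ± 7.20 FPKM at 0 min. Other genes of this list with the smallest F test p took several courses. Gohir.A07G020900 fell by 4.08 in leaf and 2.73 in stem and rose by 7.08 in root. Gohir.A05G091700, with means under 1 FPKM at 0 min, rose by 1.19 in leaf, 2.53 in stem and 5.37 in root. Gohir.D05G139900 rose by 1.33 in leaf and 3.36 in root and fell by 1.61 in stem.

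At 180 min the shares of all genes called higher and lower were 9.89% and 9.61% in leaf, 15% and 14.3% in stem, and 28.5% and 26.9% in root. DnaJ genes, the J-domain partners of Hsp70, had 16 higher and 34 lower of 204 in leaf, 30 and 32 of 200 in stem, and 81 and 32 of 197 in root, with medians of -0.06, 0.05 and 0.30. The stem shares of 15% and 16% and the leaf share of 7.84% higher were near those of all genes. On the own-sum scale DnaJ had 46 higher and 63 lower in root. Genes with ClpB or Clp words, whose proteins include the Hsp100 disaggregases, had 1 higher and 8 lower of 28 in leaf, 4 and 5 of 29 in stem, and 13 and 4 of 29 in root (9 and 10 of 30 on the own-sum scale), with medians of -0.22, -0.12 and 0.29. Genes with chaperonin words had more lower than higher genes in all 3 tissues, with 26 lower and 2 higher of 77 in leaf, 36 and 1 of 79 in stem, and 34 and 8 of 79 in root, and medians of -0.36, -0.51 and -0.37. These words also take in phosphatidylinositol phosphate kinases and T-complex protein 11, and without such genes the counts were 26 lower and 0 higher of 60 in leaf, 30 and 1 of 59 in stem, and 26 and 6 of 59 in root. Gohir.A03G069700, a ClpB-type gene, fell by 1.45 in leaf and fell by 2.66 in stem and rose by 2.83 in root. Gohir.D03G096200 of the same list fell by 1.49 in leaf and 3.09 in stem and rose by 3.10 in root. Gohir.A09G011200, also of that list, was called in no tissue. It had 0.21 in leaf, -0.12 in stem and -0.47 in root (limma adjusted p = 0.492, 0.698 and 0.110). Gohir.D08G223700, a DnaJ gene, fell by 2.84 in leaf and fell by 2.27 in stem and rose by 0.97 in root, a root call lost on the own-sum scale (0.38, limma adjusted p = 0.143). Gohir.A08G207100, a DnaJ gene with a smaller F test p in leaf and stem, fell by 2.45 in leaf and 2.96 in stem. It had no call in root (0.21, limma adjusted p = 0.369). The DnaJ gene Gohir.D09G162100 fell by 0.89 in leaf and 0.69 in stem and rose by 3.11 in root.

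Heat shock factor genes had 10 higher and 12 lower of 72 in leaf, 8 and 16 of 74 in stem, and 23 and 12 of 77 in root (18 and 22 of 76 on the own-sum scale). Their medians were -0.14, -0.25 and 0.27 in leaf, stem and root. Leaf had 13.9% higher and 16.7% lower, stem 10.8% and 21.6%, and root 29.9% and 15.6%, of which the root share higher was near that of all genes and the stem share higher was below it. The factor gene Gohir.A13G187500 had 0.478 ± 0.109 FPKM in leaf at 180 min, against 25.6 ± 7.5 FPKM at 0 min, and 64.9 ± 19.2 FPKM in root at 180 min, against 2.50 ± 1.98 FPKM at 0 min (SD, n = 3 each). It fell by 4.13 in leaf and fell by 5.29 in stem and rose by 4.33 in root (limma adjusted p = 2.18e-04, 1.37e-05 and 8.48e-07). Other factor genes with the smallest F test p took other courses. Gohir.A05G030700 and Gohir.D05G032100 rose by 2.88 and 4.10 in leaf. Gohir.D07G012000 rose in all 3 tissues, by 2.83 in leaf, 1.55 in stem and 3.93 in root. So did Gohir.A07G012200, by 1.65, 0.94 and 3.53. Gohir.A08G179400 fell in all 3, with -1.07 in leaf, -2.70 in stem and -0.57 in root.

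The genes whose course over the 15 group means was most like that of the D13 gene were ranked among 54620 expressed genes by Pearson's r, with both genes left out of each other's ranking since their own r is given above. Gohir.D13G194500, described as IQ-DOMAIN 1, a calmodulin-binding protein, came first with r of 0.964. Gohir.D11G123300, with a U1 zinc finger, had 0.961, and the undescribed Gohir.A13G187600 and Gohir.A10G225600 had 0.960 and 0.956. Gohir.D05G096900, the Hsp70 gene above, had 0.955. In all, 15 genes other than the A13 gene had r of at least 0.9. Gohir.D13G194500 had a mean of 0.664 FPKM in leaf at 180 min, against 17.5 FPKM at 0 min, and 44.5 FPKM in root at 180 min, against 2.25 FPKM at 0 min.

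For the A13 gene, 17 genes other than the D13 gene had r of at least 0.9. The closest were the DnaJ gene Gohir.D05G287500 (0.959), Gohir.D13G194500 (0.957), the Hsp90 gene Gohir.A01G093900 (0.945), Gohir.A10G225600 (0.941) and Gohir.A13G167400, described as RNA-binding protein 42 (0.939). Of the 5 closest, 2 were shared between the D13 and A13 lists. Gohir.D05G287500 moved over a narrower range, with 41.2 FPKM in leaf at 180 min, against 90.6 FPKM at 0 min. All these genes share the libraries that the 2 genes were measured in.

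No annotated neighbour was called in leaf or stem at 180 min. Of all genes, 9.61% were called lower and 9.89% higher in leaf, and 14.3% and 15% in stem. With so few neighbours tested, the lack of a call does not set them apart from other genes. Neither gene overlaps an annotated neighbour, and the nearest lie 8381 bases from the D13 gene and 8798 bases from the A13 gene. Both of these, Gohir.D13G134000 and Gohir.A13G130600, encode EF-hand proteins, the second described as calcineurin B-like protein 3. On the other side each chromosome has a uridine kinase family gene, Gohir.D13G133700 and Gohir.A13G130400, within 2 genes. Of the 8 neighbours, 2 on each side of each gene, 2 were listed at 0 in every group, and for the others limma gave adjusted p of 0.11 or more at 180 min in leaf and stem. In root Gohir.D13G134000 rose by 0.94 and Gohir.D13G133800 fell by 0.82 at 180 min (limma adjusted p = 8.01e-04 and 0.00664), where 55.3% of all genes were called.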

How the data were processed

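The deposited table gives FPKM per gene for 45 libraries. Per the submitters' processing notes, HISAT2 2.0.5 and featureCounts 1.5.0-p3 were used; genome build, strandedness and the treatment of multiply mapping reads are not given in the sources used here. Every value came out as a whole number of reads within 0.01 reads. Genes with at least 1 FPKM in at least 3 libraries of a tissue were fitted with limma 3.58.1 (R 4.3.3) on log2(FPKM + 1), 1 fit per tissue, time as the factor, each time set against 0 min, trended and robust empirical Bayes, Benjamini-Hochberg adjustment over all genes tested and a threshold of 0.05. The fit was tested on simulated data. Descriptions used Python 3.11.15. Errors are SDs over 3 libraries.

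The members and gene lists were chosen with earlier results of these data known. Lists came from words in the deposited descriptions. The word Hsp90 also names an ATPase domain of unrelated proteins, so other Hsp90 genes were taken by the Hsp90 protein domain, a choice made after the descriptions were read. Named genes were drawn from the members, Hsp90 genes reaching 10 FPKM, list genes with the smallest F test p, 2 chromosome neighbours a side and the 5 genes most alike. Only a part of the genes these rules gave is named. Same-numbered libraries deviated together (every correlation over 0.1) only for stem at 10 min, where the value with the block is given, and the fits otherwise carry no block; alternatives were another pseudocount, filter, scaling and leaving out libraries. No sequences are shown.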

Additional observations from a re-analysis of the deposited data

Results flagged for a closer look

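For 14 of 28 genes checked, all 3 root libraries at the stated time lay above all 3 root libraries at 0 min, while all leaf and all stem libraries lay below theirs. The 28 are a part of the genes that the rules for naming gave. They leave out some genes named above. Among those left out are heat shock factor genes that took other courses, Gohir.A05G030700, Gohir.D05G032100, Gohir.D07G012000, Gohir.A07G012200 and Gohir.A08G179400. Of the 39679 genes tested in all 3 tissues, 1.02% had that pattern at 180 min. The count is no measure of the lists, since the 28 include the 2 picked for their leaf and stem values. They also include others picked by the smallest F test p, and Hsp90 genes such as Gohir.D08G135400 picked by their root level at 180 min. The difference between tissues was not tested for any of them. The values below are the root log2 difference from 0 min minus that of the other tissue.

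For Gohir.D13G133900 at 180 min the root value exceeded that of leaf by 9.54 and that of stem by 9.94. For Gohir.A13G130500 the excess at 180 min was 8.26 over leaf and 7.59 over stem, and at 60 min it was 6.02 and 5.10. The leaf and stem values chose both genes.

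All others refer to 180 min. Among Hsp90 genes, root exceeded leaf and stem by 10.4 and 9.63 for Gohir.A12G254100, by 6.85 and 7.75 for Gohir.D12G256400, and by 4.90 and 5.59 for Gohir.D08G135400. Gohir.D06G005800 had 2.23 and 2.21. Among co-chaperones the excess was 10.4 and 9.35 for Gohir.D09G201600, and 3.81 and 3.70 for Gohir.A10G041000. The Hsp70 genes had 9.53 and 9.55 (Gohir.D05G096900) and 9.70 and 10.0 (Gohir.A05G096700). Gohir.A13G187500, the heat shock factor gene, had 8.46 and 9.62. The small heat shock protein gene Gohir.A03G037000 had 8.62 and 8.41. Gohir.A03G069700, of the ClpB type, had 4.29 and 5.49, and the DnaJ gene Gohir.D08G223700 had 3.81 and 3.24.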

How the results depend on the processing

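Both genes rose in root at 180 min under every alternative run. Leaving out 1 library at a time gave 3.22 to 4.11 for the D13 gene and 2.83 to 3.51 for the A13 gene. At 10 min the D13 range was -0.65 to 0.17 and at 60 min 0.61 to 1.43; for the A13 gene it was -0.52 to 0.15 at 30 min and 0.76 to 1.43 at 60 min. The values above 0 at 10 and 30 min were those without library y. At 60 min the A13 gene had 0.81 under quantile normalisation, and 1.02 in 1 fit of all 45 libraries, neither past the threshold. In leaf the D13 gene at 180 min was -6.70 with a pseudocount of 0.1; the other leaf and stem values of both genes moved by less than 1 SD of the libraries.

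Called genes numbered 4156 to 5983 in root at 10 min (7093 with all libraries), 5790 to 7173 in leaf (9019) and 8853 to 16996 in stem (13983) at 180 min when 1 library was left out. Fewer libraries enter those fits. With each library divided by its own sum, root had 3588 higher and 4954 lower at 10 min, 7198 and 10253 at 30 min, 7492 and 11663 at 60 min, and 7139 and 21254 at 180 min. With the deposited values these were 3810 and 3283, 8201 and 7754, 9105 and 8927, and 13311 and 12543.

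Taking other Hsp90 genes by words called 29 of 79 tested genes in leaf, 51 of 87 in root and 37 of 83 in stem at 180 min, against 18 of 23, 17 of 24 and 17 of 25 by the domain. Of the Hsp70 list, 20 genes were called in root on the own-sum scale, against 31. Differences that missed the threshold and changed sign under another scaling or pseudocount were Gohir.A03G020600 in leaf (-0.16 with a pseudocount of 0.1), and in root on the own-sum scale Gohir.A06G002800 (-0.17), Gohir.D01G078400 (-0.52) and Gohir.D04G089500 (-0.37). Under quantile normalisation the last 2 had -0.39 and -0.25. Leaving out 1 library also turned the sign of Gohir.A03G020600 in leaf, Gohir.D01G078400 in root and Gohir.D03G148100 in stem. Of the 5 genes most like each of the 2, 3 and 3 recurred by Spearman's rho, and 4 and 2 over libraries.

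With the replicate number as a block, 25604 or 25320 root genes were called at 180 min, depending on which of libraries x and y is taken as number 1, with 3.58 and 3.09 for the D13 and A13 genes, and no call on them changed. Correlations between deviations of same-numbered libraries ran between -0.52 and 0.62. Only stem at 10 min had all 3 above 0.1 (0.62, 0.17 and 0.27), so no block was used elsewhere. Root at 180 min came close, with 0.099, 0.124 and 0.288 when library x is taken as number 3. With 3 libraries a group and a set cut-off, this check cannot show that libraries elsewhere are unpaired. The block gave 385 calls in leaf at 10 min (698 without), 1199 at 60 min (1825) and 502 in stem at 30 min (1130).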
